A study of Drosophila melanogaster with 9 samples.

Results

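The homeobox transcription factors examined here are 56 genes whose proteins carry a homeodomain, together with Pax proteins that carry a paired domain with or without one. They were listed by FlyBase symbol and matched to the gene identifiers of the count files, and all 56 were found among the 16364 genes in each file. By class, the list holds 8 Hox genes, 20 other genes of the Antp-like class, 6 LIM genes, 3 POU genes, 4 Pax genes, 7 paired-like genes, 2 Cut genes, 2 zinc finger homeobox genes and 4 TALE genes. Their expression was measured in Drosophila larval brains, in INPs (intermediate neural progenitors). INPs are born from type II neuroblasts, divide several times and give rise to neurons and glia of the central complex and neighbouring regions. They were collected by FACS at the wandering L3 stage. Each of the 3 temporal states, D+, Grh+ and Ey+, was measured in 3 libraries of 6000 to 7000 cells. All flies carried erm-GAL4 driving UAS-cd8::tdTomato, and the states differed in the tagged temporal identity factor, which was D::GFP, Grh::GFP or Ey::GFP. The D fusion was a knock-in at its own locus, whereas Grh::GFP and Ey::GFP were BAC insertions and hence additional gene copies. Eggs were laid at 25 °C and the animals were then kept at 29 °C. The largest cells with the highest tdTomato and GFP were sorted, so a state is a gate on a fusion protein and not a single cell type. The labels call all animals wild type. No source says that replicates came from separate crosses, and p-values therefore measure the spread between these libraries, which may be technical.

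Homeodomain proteins bind DNA through a conserved helix-turn-helix fold and are among the best known determinants of neuronal identity. Individual neurons are commonly specified by combinations of them, such as the LIM genes that distinguish motor neurons, the POU genes that select olfactory receptors and the Hox genes that assign position along the body axis. INPs pass through successive temporal states and produce different neurons in each, for example neurons with Brain-specific homeobox (Bsh) from the young, D+ INPs. The question addressed was which of these identity factors distinguish the transcriptomes of the states.

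Depth ranged from 11266164 counts on genes in Grh+ replicate 1 to 23184025 in D+ replicate 1. The progenitor marker genes were present in all libraries, with a summed level of 4602 to 6735 RPM (counts per 1000000 counts on genes). Some libraries stood apart. In Grh+ replicate 2, 15568 genes had at least 1 count, against 11048 to 14330 in the other libraries, and 87.1% of the 6171 genes too low to be tested had a count there, against 23.7% to 67.3% elsewhere. In Ey+ replicate 1 the 13 neuron markers measured summed to 4165 RPM, against 327 to 1387 RPM elsewhere. Most of that sum came from elav (2704 RPM) and cac (1008 RPM). In D+ replicate 2 the 56 members summed to 763 RPM, against 1179 to 2331 RPM elsewhere. The names of the deposited files carry a code in the form of a flowcell identifier, which is one for the D+ libraries and another for the Grh+ and Ey+ libraries, so that sequencing run and state cannot be told apart in any comparison with D+ INPs. The comparison of Ey+ with Grh+ INPs lies within one code.

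Most homeobox members were low in INPs, and a few were abundant in every state. A mean above 10 RPM was reached by 12 of the 56 members in at least 1 state, by 9 members in each state and by 7 in all states. Together, exd, ap, onecut and zfh2 took 79.0% to 92.0% of all reads on members in each library. Per kilobase of exon, the mean level in Grh+ INPs was 153 RPM for exd, 100 RPM for ap, 38.5 RPM for onecut and 7.38 RPM for zfh2, and the next were Scr with 6.08 and Dll with 5.66 RPM. The other 44 members stayed at or below 10 RPM in every state. Of these, 21 were over 1 RPM in all 3 Grh+ libraries, 6 in all D+ and 11 in all Ey+ libraries. The heat map of all members by library shows the 4 abundant genes in every column and a field of low values around them.

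**Figure D1:**
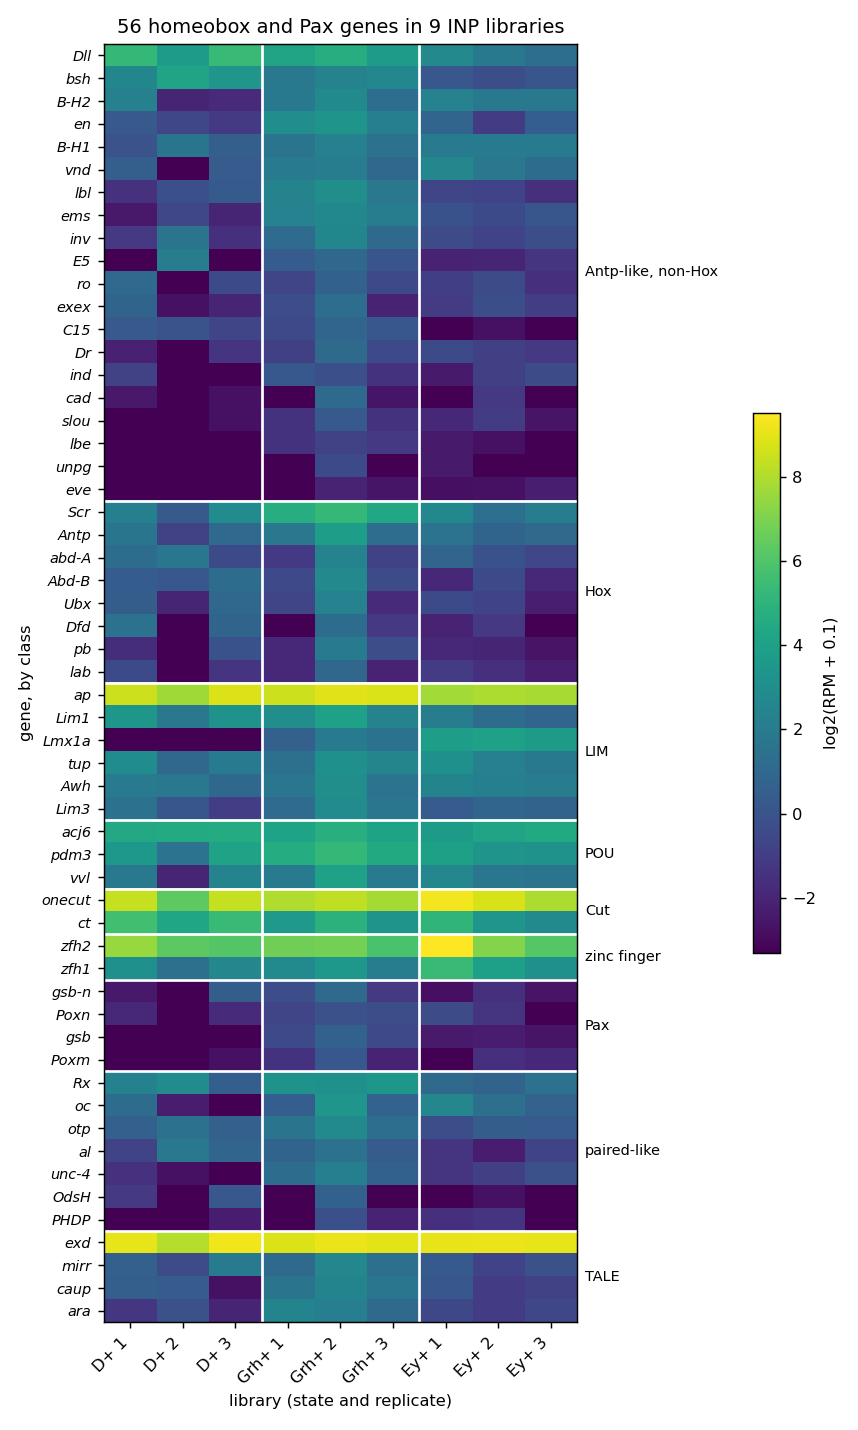
Level of each of the 56 members (rows, grouped by class) in the 9 libraries (columns, by state and replicate) as log2(RPM + 0.1). The genes exd, ap, onecut and zfh2 are bright in all libraries, Lmx1a is at 0 in the 3 D+ libraries, and Grh+ replicate 2 has counts for all 56 members.

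The states were compared in pairs across the 9 libraries with edgeR's quasi-likelihood test, over 10193 genes, of which 47 are members. A call required an adjusted p under 0.05 (Benjamini-Hochberg over all genes tested), a log2 fold change beyond 1 in either direction, and a mean level above 10 RPM in one of the states. In Grh+ against D+ INPs 1 member was called, Lmx1a, which was higher, where 3.16% of all genes tested were called and 1.73% were called higher. In Ey+ against D+ INPs 3 members were called, where 3.95% of all genes were called. They were Lmx1a, which was higher (1.65% of all genes), and bsh and Dll, which were lower (2.31% of all genes). In Ey+ against Grh+ INPs edgeR called 0 members with or without the RPM minimum, where it called 0.235% of all genes. DESeq2 called 3 members with the RPM minimum, where it called 175 of all genes. An unadjusted p under 0.05 was found in that comparison for 18 of the 47 members (3 higher and 15 lower in Ey+ INPs), or 38.3%, where 8.43% of all genes had one. In the comparisons with D+ INPs it was found for 10 members each, or 21.3%, where 23.8% of all genes had one for Grh+ and 26.5% for Ey+ INPs. Without the RPM minimum, 4 members passed in Grh+ against D+ INPs (4.28% of all genes), which were Lmx1a, ems, gsb and en, all higher (2.80% of all genes). By that rule 4 passed in Ey+ against D+ INPs (4.92% of all genes), namely Lmx1a, higher (2.33% of all genes), and bsh, Dll and C15, lower (2.58% of all genes). The calls among all genes depended on the scaling. Between Grh+ and D+ INPs 54.7% of them were higher, against 81.5% with library size alone and 31.4% after the dependence of each library on exon length was removed. For Ey+ against Grh+ INPs the corresponding shares were 29.2%, 13.5% and 47.7%.

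**Figure D2:**
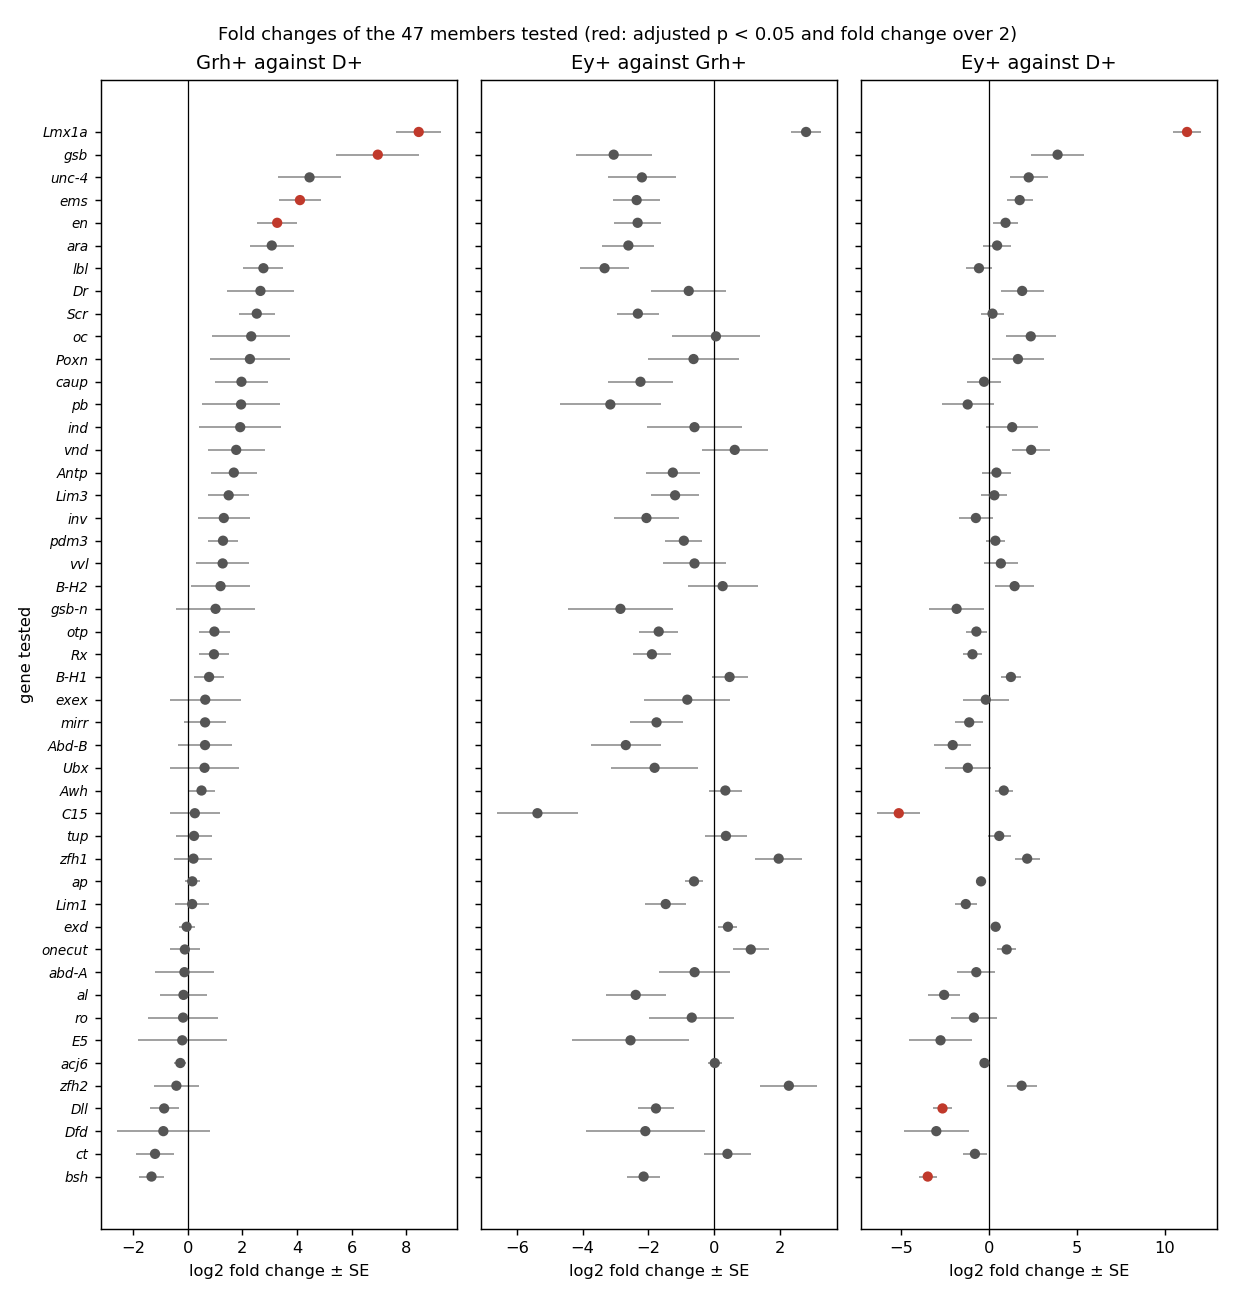
Log2 fold change with its standard error (x axis) of the 47 members tested (y axis, ordered by the first panel) in the 3 comparisons, from edgeR. Red points passed an adjusted p under 0.05 and a log2 fold change over 1 without the RPM minimum, 4 members in the first panel, 0 in the second and 4 in the third. The fitted values of Lmx1a and gsb against D+ INPs rest on a state with 0 counts and have no defined size.

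The LIM gene Lmx1a (FBgn0052105, chromosome 3L, 12329232 to 12335901, plus strand), whose vertebrate relatives specify dopaminergic neurons and the roof plate, was the member with the clearest order of states. It had 0 counts in D+ replicates 1, 2 and 3. In Grh+ replicates 1, 2 and 3 it reached 1.42, 3.66 and 2.62 RPM. In Ey+ replicates 1, 2 and 3 it reached 14.8, 16.04 and 12.9 RPM. The 3 states did not overlap, and Ey+ INPs were highest. It was the one member tested whose Ey+ libraries all lay above the other 6, where 1.07% of all genes were so arranged. Against the level that 3 counts per library give, 0.144 RPM on average, Lmx1a was at least 17.9-fold higher in Grh+ INPs and at least 101-fold higher in Ey+ INPs than in D+ INPs, with edgeR adjusted p of 0.00359 and 0.000552. Within one flowcell code, its mean was 2.57 ± 1.12 RPM in the Grh+ and 14.6 ± 1.58 RPM in the Ey+ libraries (SD, n = 3), a log2 fold change of 2.80 (SE 0.46) with an edgeR adjusted p of 0.0730. This missed the threshold, and the change passed in 7 of 16 alternatives. They were the fits without D+ replicate 1 (0.0417) or D+ replicate 2 (0.0254), DESeq2 (1.06e-06) and the 6 libraries alone (0.0218). The others were library size only (0.0448), the exon length trend removed (0.0222) and no filter (0.0474). Without any Grh+ library its adjusted p was 0.226 to 0.352, and it reached 0.372 without Ey+ replicate 2. The call against D+ INPs in Ey+ INPs stood in all 16 alternatives that could test the gene, and that in Grh+ INPs in 15 of 16, the exception being the fit of 6 libraries alone (0.0506).

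The gene bsh (FBgn0000529, chromosome 2L, 19765776 to 19769067, minus strand) encodes Brain-specific homeobox, used in these lineages as the marker of neurons born from young INPs. It was found at 5.82, 17.8 and 10.3 RPM in D+ replicates 1, 2 and 3. The Grh+ replicates had 3.37, 5.35 and 6.26 RPM. The Ey+ replicates had 1.01, 0.738 and 0.974 RPM. Every Ey+ library was below every other library, whereas D+ and Grh+ libraries overlapped. Between Ey+ and D+ INPs bsh fell 11.1-fold (log2 fold change -3.47, SE 0.52, edgeR adjusted p = 0.00657). Its adjusted p stayed below 0.05 in all 17 alternatives, while without D+ replicate 2 the D+ mean was 8.08 RPM, under the RPM minimum. Within one flowcell code, the log2 fold change of Ey+ against Grh+ INPs was -2.14 (SE 0.50), with an adjusted p of 0.141 by edgeR. Over the alternatives it lay between 0.00495 (DESeq2) and 0.515. The change passed in 3 of 17 of them, with DESeq2, library size only (0.0455) and the 6 libraries alone (0.0422). Between Grh+ and D+ INPs the log2 fold change was -1.33 (SE 0.47, adjusted p = 0.124), and it passed in 1 of 17 alternatives, without D+ replicate 1 (-1.63, adjusted p = 0.0464). Without D+ replicate 2, the library with the highest bsh, it was -0.83 (adjusted p = 0.303). The Pax gene toy, which is not a member and marks neurons of old INPs, had means of 9.22, 22.02 and 13.2 RPM in D+, Grh+ and Ey+ INPs and was not called in any comparison.

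Dll (FBgn0000157, chromosome 2R, 24814822 to 24835667, plus strand), the Distal-less gene of appendage and head development, followed the same order of state means. It had 38.0, 13.5 and 40.4 RPM in D+ replicates 1, 2 and 3, and 17.8, 25.3 and 13.1 RPM in the Grh+ replicates. In the Ey+ replicates it had 6.62, 3.59 and 2.41 RPM, each below all libraries of the other states. Between Ey+ and D+ INPs Dll fell 6.21-fold (log2 fold change -2.63, SE 0.56, edgeR adjusted p = 0.0251). The call was lost without D+ replicate 3 (0.0703), Ey+ replicate 2 (0.108) or Ey+ replicate 3 (0.0501), with log2 fold changes of -2.35, -2.45 and -2.29, and with the 6 libraries of the comparison alone (0.0755). Without Ey+ replicate 1 the log2 fold change was -3.32 (adjusted p = 0.0123). For Ey+ against Grh+ INPs Dll had a log2 fold change of -1.77 (SE 0.55, adjusted p = 0.342). The D+ libraries themselves differed, and the replicate with the highest bsh was the one with the lowest Dll. The 4 optic lobe neuroepithelium markers summed to 887 to 1922 RPM in D+, 1436 to 1716 RPM in Grh+ and 1401 to 1778 RPM in Ey+ libraries. Their lowest sum was in D+ replicate 2, where bsh was highest, and their part in these levels was not tested.

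A further 3 low members had all Ey+ libraries below the other 6. C15 (chromosome 3R, 21499986 to 21512814), the clawless gene of the leg tip, had 1.12, 0.870 and 0.544 RPM in D+ replicates 1, 2 and 3, and 0.621, 1.74 and 1.01 RPM in the Grh+ replicates. In Ey+ INPs it had 1 count in all, in replicate 2, against 54 counts in D+ INPs, a ratio of pooled levels of 51.1 (exact 95% interval 8.79 to 2055, counting error only). Its edgeR adjusted p between Ey+ and D+ INPs was 0.0364, without the RPM minimum. That call was lost without any of the libraries except D+ replicate 1, and it reached 0.210 without Ey+ replicate 1. The paired-like genes al (aristaless) and otp (orthopedia) had means of 0.297 and 1.07 RPM in Ey+ INPs, against 1.91 and 1.89 RPM in D+ INPs, and neither passed (adjusted p = 0.117 and 0.470). For al the log2 fold change was -2.54, and it passed without D+ replicate 1 (0.0474) and with DESeq2 (0.0355). Without D+ replicate 2 it was -1.76 (0.278). In all, 5 of the 47 members tested had this arrangement, where 4.70% of all genes did.

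**Figure D3:**
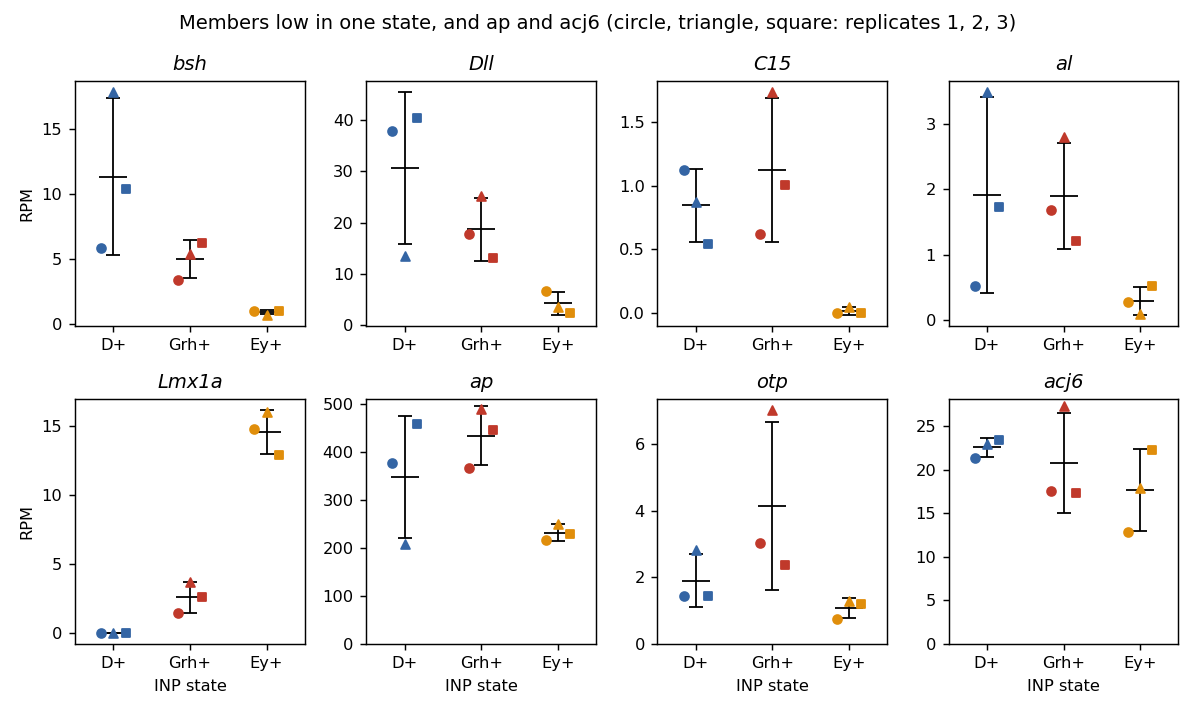
RPM of 8 members by state, with the mean and SD of 3 libraries (bars) and single libraries as points (circle, triangle and square for replicates 1, 2 and 3). The genes bsh, Dll, C15, al and otp are lowest in all Ey+ libraries, Lmx1a runs from 0 in D+ to 12.9 to 16.04 RPM in Ey+ libraries, and acj6 overlaps between all states.

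Another set of members was highest in the middle, Grh+ state. In 10 of the 47 members tested, all Grh+ libraries were above the other 6, where 9.31% of all genes tested and 12.1% of those at most 10 RPM in every state had this arrangement. They were the Hox gene Scr, the POU gene pdm3, the paired-like genes Rx and unc-4, the Pax gene gsb, the Iroquois genes ara and caup, and ems, en and lbl. For Scr (FBgn0003339, chromosome 3R, 6823120 to 6849981, minus strand), which specifies the labial and anterior thoracic segments, the Grh+ replicates had 25.4, 37.8 and 20.3 RPM. The D+ replicates had 4.53, 1.13 and 7.32 RPM and the Ey+ replicates 6.39, 2.51 and 4.07 RPM. The lowest Grh+ library was thus above all libraries of both neighbouring states. The log2 fold change was 2.52 (SE 0.65) for Grh+ against D+ INPs, with an edgeR adjusted p of 0.0505, and -2.32 (SE 0.65) for Ey+ against Grh+ INPs, with an adjusted p of 0.265. The first value missed the threshold narrowly and passed in 6 of 17 alternatives, among them DESeq2 (0.0015) and the fit without Ey+ replicate 1 (0.0357). Without Grh+ replicate 2 it was 2.29 with an adjusted p of 0.153, and without D+ replicate 3 it was 3.15 with 0.0572. These comparisons share the Grh+ libraries, so a rise and a fall in the same gene are not independent of each other.

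Of the low members in this set, ems and en passed between Grh+ and D+ INPs once the RPM minimum was left out. The gene ems (empty spiracles), which patterns the embryonic head and brain, had 5.15, 6.27 and 4.04 RPM in Grh+ replicates 1, 2 and 3. It had 0.0863, 0.563 and 0.148 RPM in the D+ replicates and 0.827, 0.640 and 0.974 RPM in the Ey+ replicates. All states were separate for ems, with D+ lowest and Ey+ between. It rose 17.2-fold from D+ to Grh+ INPs (log2 fold change 4.11, SE 0.78, edgeR adjusted p = 0.0178), and the adjusted p was 0.0904, 0.0667 and 0.0727 without Grh+ replicate 1, 2 or 3. Without D+ replicate 2, where ems had 11 counts against 2 and 3 in the other D+ libraries, the log2 fold change was 5.24. The segment polarity gene en (engrailed), which defines posterior compartments, had 7.63, 9.88 and 4.58 RPM in the Grh+ replicates. It had 1.12, 0.563 and 0.346 RPM in the D+ replicates and 1.70, 0.394 and 1.32 RPM in the Ey+ replicates. D+ and Ey+ libraries overlapped and lay below all Grh+ libraries. It rose 9.66-fold from D+ to Grh+ INPs (log2 fold change 3.27, SE 0.74, adjusted p = 0.0337). This call was lost without any Grh+ library (0.133, 0.116 and 0.0868 without replicate 1, 2 or 3). It was also lost without D+ replicate 2 (0.0629) or 3 (0.0769), and without Ey+ replicate 3 (0.0590). Over all genes, those passing by this rule fell from 436 to 56, 123 and 88 without Grh+ replicate 1, 2 or 3. The losses of ems and en without a Grh+ library thus went with a fall over all genes.

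The Pax gene gsb (gooseberry), another segment polarity gene, had 0 counts in every D+ library. It had 0.621, 1.49 and 0.606 RPM in the Grh+ replicates and 0.0919, 0.0984 and 0.0573 RPM in the Ey+ replicates. Against the level of 3 counts per library it was at least 6.31-fold higher in Grh+ than in D+ INPs, with an edgeR adjusted p of 0.0389. This rose above 0.05 when any of the 9 libraries was left out (0.0538 to 0.183). It also did so with no filter (0.0879), library size only (0.0510), the replicate block (0.109) and the 6 libraries alone (0.126). The call was thus lost in 13 of 16 alternatives. The expression filter kept gsb through its Grh+ libraries, the state in which it was then tested as high. Just outside the threshold in the same comparison were unc-4, lbl and ara, with adjusted p of 0.0507, 0.0544 and 0.0529. For unc-4, which acts in the identity of cholinergic neurons, the means were 0.103, 2.74 and 0.507 RPM in D+, Grh+ and Ey+ INPs. The muscle and neuronal identity gene lbl (ladybird late) had means of 0.722, 5.51 and 0.424 RPM, and ara (araucan), a prepattern gene of the Iroquois complex, had 0.423, 3.99 and 0.521 RPM. Their log2 fold changes between Grh+ and D+ INPs were 4.46 (SE 1.15), 2.77 (SE 0.73) and 3.07 (SE 0.81). Without D+ replicate 1 the value of unc-4 was 6.25 (0.0207), and its adjusted p ranged up to 0.173 over the alternatives. Without D+ replicate 2 that of ara was 3.95 (0.0270), with adjusted p of up to 0.258, and for lbl they ranged up to 0.195. For pdm3, a POU gene of olfactory neurons, Grh+ replicates 1, 2 and 3 had 24.7, 37.7 and 21.9 RPM. The D+ replicates had 11.3, 2.92 and 16.7 RPM and the Ey+ replicates 15.8, 9.79 and 9.28 RPM. Its means were 10.3 ± 6.94, 28.1 ± 8.42 and 11.6 ± 3.60 RPM in D+, Grh+ and Ey+ INPs (SD, n = 3). Its log2 fold change of 1.29 (SE 0.56) between Grh+ and D+ INPs did not pass (adjusted p = 0.200).

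**Figure D4:**
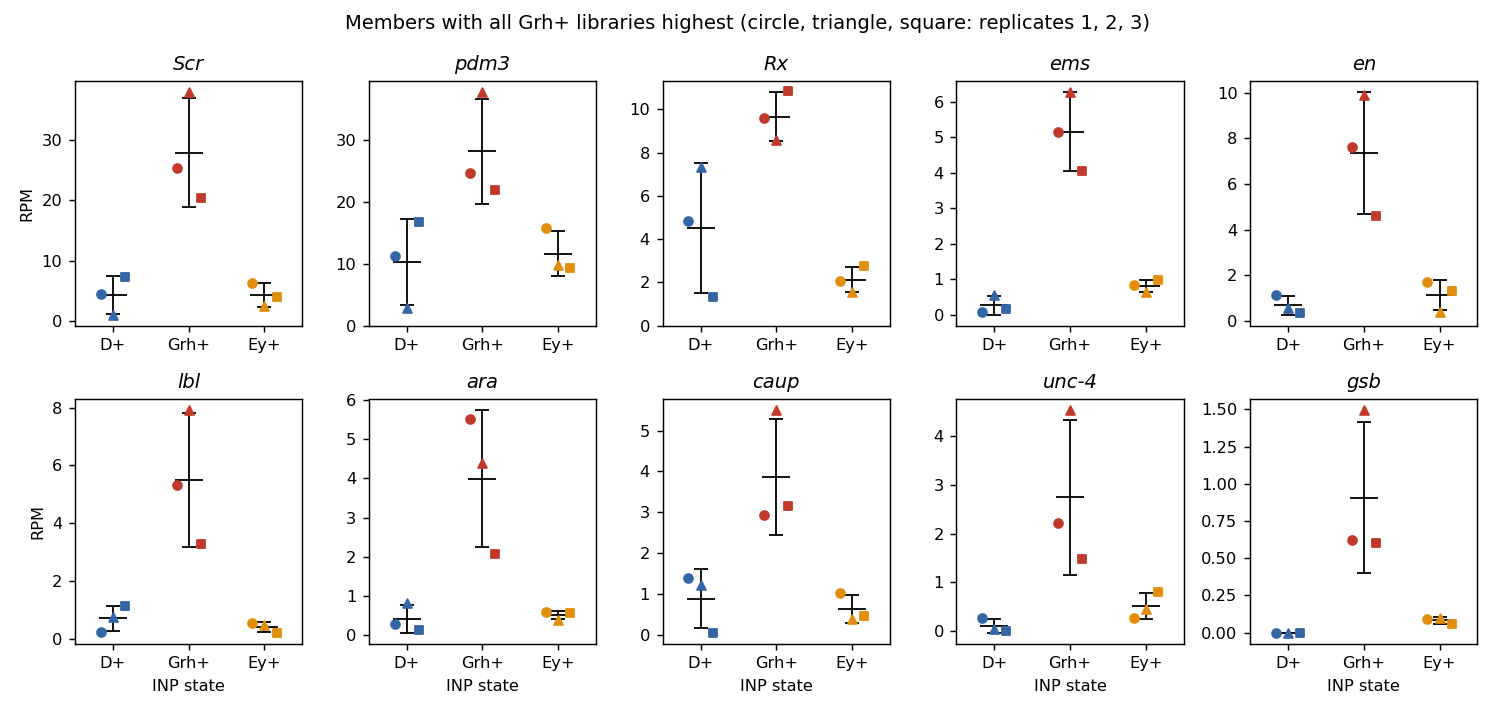
RPM of the 10 members tested whose Grh+ libraries all lay above the other 6, by state, with the mean and SD of 3 libraries (bars) and single libraries as points (circle, triangle and square for replicates 1, 2 and 3). Grh+ replicate 2 (triangle) is the highest of the Grh+ libraries for 8 of these genes, while Rx is highest in replicate 3 and ara in replicate 1.

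The excess of members with the highest mean in Grh+ INPs rested in part on 1 library. On the RPM scale 40 of all 56 members had their highest mean in Grh+ INPs. Among the 47 tested this was 66.0%, against 48.8% of all genes tested. Among those at most 10 RPM in every state it was 80.0% of members and 59.8% of all genes. Without Grh+ replicate 2 the share fell to 44.7% of members, against 42.8% of all genes, and among the low ones to 51.4% of members and 40.7% of all genes. RPM does not use the TMM factors, which were larger in the Grh+ libraries (1.09 to 1.13) than elsewhere (0.741 to 1.03). With effective library sizes the shares were 57.4% of members and 28.9% of all genes, and without Grh+ replicate 2 they were 42.6% and 25.5%. In Ey+ against Grh+ INPs, 22 members were lower without overlap of libraries (46.8% of members, 21.5% of all genes), and 1, Lmx1a, was higher (2.13%, where 1.72% of all genes were). Without Grh+ replicate 2, 22 members were lower in this way, when 33.6% of all genes were so arranged. Leaving out a library can only keep or add genes without overlap. Neither this count nor the next one without Grh+ replicate 2 could therefore have fallen. In Grh+ against D+ INPs 14 members were higher without overlap (29.8% of members, 21.3% of all genes), and 14 without Grh+ replicate 2, where the share of all genes was 24.8%. In Ey+ against D+ INPs 8 members were higher (17.0%, where 9.88% of all genes were) and 6 lower (12.8%, where 14.6% of all genes were). Filtering on low counts keeps some members only through the state in which they are high, so these counts describe the members tested.

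Of the marker sums of other cells, that of the eye disc did not overlap between the Grh+ and the other libraries, with no test. The 5 photoreceptor markers of the eye disc summed to 40.8 to 54.3 RPM in Grh+ libraries, 17.3 to 22.2 RPM in D+ and 24.3 to 39.4 RPM in Ey+ libraries. Both sens and lz were at 0 in D+ replicate 3, and sens also in Ey+ replicate 3. Gene by gene, only lz was separate, with at least 2.42 RPM in Grh+ and at most 1.75 RPM in other libraries. For chp, the largest, Grh+ replicate 2 (26.8 RPM) was below Ey+ replicate 3 (27.7 RPM). Grh+ libraries also overlapped others for gl, sens and ninaE. The 8 glia markers summed to 1619 to 2002 RPM in Grh+, 960 to 1895 RPM in D+ and 1118 to 1399 RPM in Ey+ libraries, with an overlap of Grh+ and D+. The largest were nrv2 and Eaat1, with Grh+ means of 676 and 1003 RPM. For wrapper, alrm and moody, Grh+ libraries had at least 13.5, 7.72 and 7.47 RPM, and all others at most 8.60, 6.36 and 6.71 RPM. For repo, Gs2, nrv2, Eaat1 and loco they overlapped. In Grh+ against D+ INPs wrapper was called higher (edgeR adjusted p = 0.0458), moody passed without the RPM minimum (0.0112) and alrm did not pass (0.118). The 4 hemocyte markers reached 23.96 RPM in Grh+ replicate 2 and 1.38 to 9.46 RPM in the other libraries. Hml was at 0 in D+ replicate 2 and srp in D+ replicate 1 and Grh+ replicate 3. The part of these cells in the levels of the members was not tested. In bulk libraries, fewer cells of a type and less RNA per cell cannot be told apart.

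The 7 Hox genes other than Scr were low, and their sum was highest in Grh+ replicate 2. They assign segment identity along the trunk, and lab, pb and Dfd act in the head. Their summed level was 39.1 RPM in Grh+ replicate 2 and 3.10 to 11.5 RPM in the other libraries. Antp had 14.5 RPM in Grh+ replicate 2 and 0.460 to 3.46 RPM elsewhere. In the annotation used here 50.1% of its exon length is shared with CG46458 on the same strand, so its counts are uncertain. Of the 6 that were tested (all but lab), none passed in any comparison by edgeR. Of the 5 genes used as ventral nerve cord markers, 4 are Hox members (Antp, Ubx, abd-A and Abd-B), and all 5 were highest in Grh+ replicate 2. Their sum was 11.3 to 42.7 RPM in Grh+, 6.83 to 11.6 RPM in D+ and 4.77 to 8.36 RPM in Ey+ libraries. The marker that is not a Hox gene, tsh, had 8.43, 11.3 and 7.67 RPM in Grh+ replicates 1, 2 and 3. It had 0 to 4.30 RPM in the other libraries and did not pass between Grh+ and D+ INPs (edgeR adjusted p = 0.323). Grh+ libraries of the 4 Hox markers overlapped those of other states. Scr, which lies between Dfd (20.7 kb away) and Antp (46.3 kb away) in the Antennapedia complex, was over 20 RPM in all 3 Grh+ libraries, replicates 1 and 3 included.

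For paralogs that lie side by side in the genome, levels were set beside each other with no test. Every Grh+ mean here includes Grh+ replicate 2. In that library, genes too low to be tested had a median of 0.544 RPM per kilobase, against 0 in the other Grh+ libraries. The part of this background in the low means was not tested. The gene en was 7.36 ± 2.66 RPM in Grh+ INPs and inv, 14.3 kb away, was 3.33 ± 2.12 RPM. Per kilobase these levels were 2.64 and 0.56 RPM. In ems and E5 (26.9 kb apart) the Grh+ levels per kilobase were 2.08 and 0.64 RPM. E5 had 4.25 RPM in D+ replicate 2 and 0 in the other D+ libraries. In lbl and lbe (7.4 kb apart) they were 2.01 and 0.16 RPM, and all Grh+ libraries of lbe, a gene too low to be tested, were also above the other 6. In the Iroquois complex they were 1.36 RPM for ara, 0.89 RPM for caup and 0.91 RPM for mirr. For gsb and gsb-n (9.6 kb apart) they were 0.55 and 0.46 RPM, and for unc-4 and OdsH (12.3 kb apart) 0.91 and 0.39 RPM, where OdsH was at 0 in Grh+ replicates 1 and 3. The Bar genes B-H1 and B-H2 (73.3 kb apart) were at 1.25 and 1.38 RPM per kilobase in Grh+ and 1.40 and 1.30 in Ey+ INPs. In D+ INPs B-H2 was carried by replicate 1, with 4.70 RPM against 0.153 and 0.198 RPM in the others.

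Differences of exd between states were smaller than the spread between its D+ libraries. The TALE gene exd, whose product is the cofactor of Hox proteins, had means of 468 ± 173, 506 ± 53.5 and 549 ± 25.4 RPM in D+, Grh+ and Ey+ INPs (SD, n = 3), and the states overlapped. The LIM gene ap (apterous), a selector of dorsal wing and of neuron identity, had 375, 208 and 457 RPM in D+ replicates 1, 2 and 3, and 367, 489 and 444 RPM in the Grh+ replicates. In the Ey+ replicates it had 217, 250 and 228 RPM, all below the Grh+ libraries, while D+ replicate 2 was below every Ey+ library. For ap the change between Ey+ and Grh+ INPs was -0.61 on the log2 scale (SE 0.28, edgeR adjusted p = 0.609). The POU gene acj6, which selects olfactory receptors, had means of 22.6 ± 1.08, 20.8 ± 5.72 and 17.7 ± 4.74 RPM. Its log2 fold changes lay between -0.27 and 0.02 (SE 0.22), and none passed. Of the other LIM genes, Lim1 had means of 7.82, 9.74 and 2.69 RPM, and Lim3, tup and Awh stayed between 1.33 and 5.70 RPM in all state means. The ventral columnar gene vnd and the dorsal columnar gene Dr, which subdivide the early neuroectoderm, had all D+ libraries below the other 6, as did Lmx1a, ems, unc-4 and gsb (6 of 47 members, where 8.04% of all genes had this arrangement). The means of vnd were 0.856, 3.29 and 3.90 RPM, and it did not pass (adjusted p = 0.184 between Ey+ and D+ INPs). No member tested had all D+ libraries above the other 6, where 7.57% of all genes and 1.68% of those at most 10 RPM in every state had.

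The genes onecut, zfh2 and zfh1, all expressed in differentiating neurons, were highest in Ey+ replicate 1. For zfh2, Ey+ replicates 1, 2 and 3 had 734, 140 and 71.1 RPM, D+ replicates 184, 78.8 and 67.7 RPM, and Grh+ replicates 105, 114 and 56.2 RPM. Apart from Ey+ replicate 1, the states overlapped. Its log2 fold change between Ey+ and Grh+ INPs was 2.28 (SE 0.86, edgeR adjusted p = 0.484), and without Ey+ replicate 1 it was 0.36 (SE 0.46, adjusted p = 1.00). Against D+ INPs it was 1.86 (SE 0.85, adjusted p = 0.197), and -0.03 (SE 0.47, adjusted p = 0.983) without that library. For zfh1, a gene of mesoderm and motor neurons, the Ey+ replicates had 41.3, 15.3 and 8.60 RPM and the D+ replicates 8.76, 2.61 and 6.14 RPM. Its log2 fold change was 2.17 (SE 0.72, adjusted p = 0.0917), and 1.06 (SE 0.57, adjusted p = 0.428) without Ey+ replicate 1. With DESeq2 and all libraries zfh1 passed (0.0138). For onecut the Ey+ replicates had 629, 427 and 249 RPM, the D+ replicates 340, 79.8 and 333 RPM and the Grh+ replicates 253, 308 and 218 RPM, with an overlap of all states. In Ey+ replicate 1 the sum of 13 neuron markers was 4165 RPM, of which elav gave 2704 RPM and cac 1008 RPM. The sum was 327 to 1172 RPM in D+, 496 to 1193 RPM in Grh+ and 787 to 1387 RPM in the other Ey+ libraries. Of the 13 genes, 5 were highest in Ey+ replicate 1 and 8 in Grh+ replicate 2, and none was at 0 in any library. The part of neurons in these levels was not tested. In the annotation 18.7% of the exon length of zfh2 overlaps Tdg on the opposite strand, and the counting ignored strand.

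**Figure D5:**
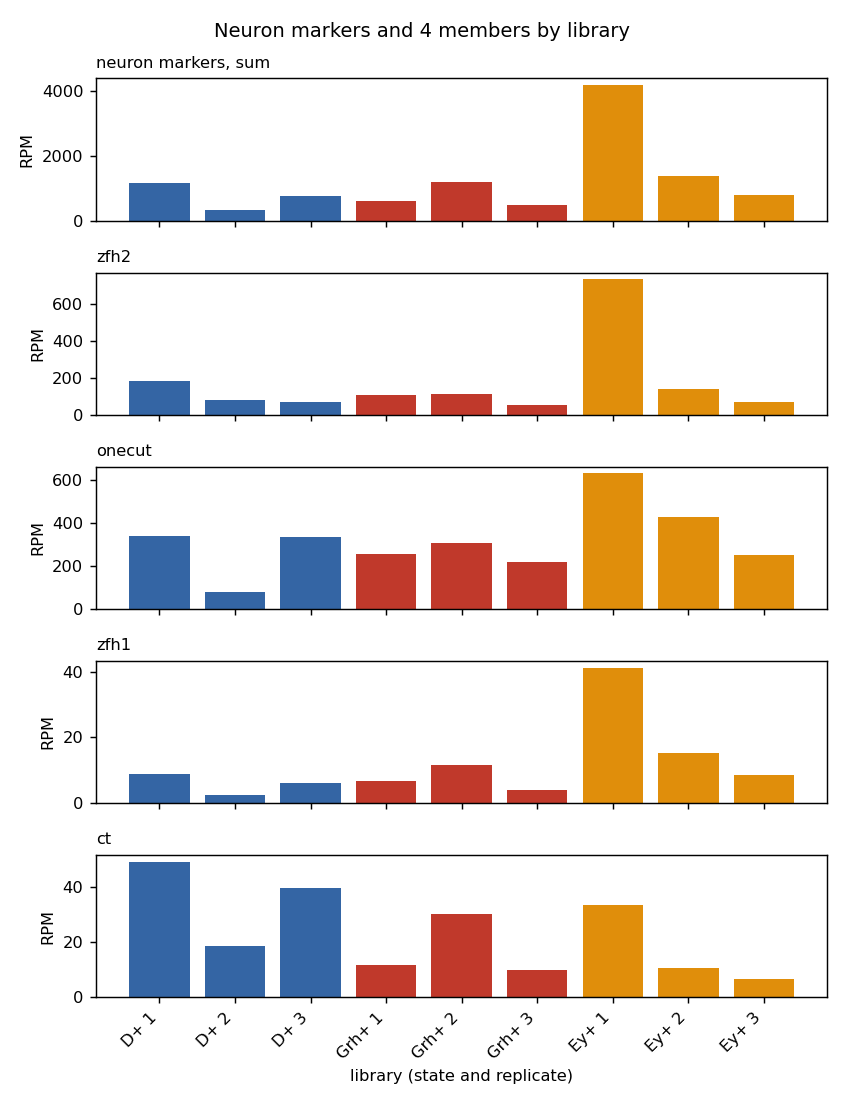
RPM (y axes, from 0) in each of the 9 libraries (x axis, coloured by state) of the sum of 13 neuron markers and of zfh2, onecut, zfh1 and ct. Ey+ replicate 1 has the highest value in every panel except ct, whose highest value, 49.3 RPM, is in D+ replicate 1.

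The Cut gene ct, which directs sensory organ identity and dendrite shape, was 49.3, 18.5 and 39.8 RPM in D+ replicates 1, 2 and 3. The Grh+ replicates had 11.7, 30.4 and 10.03 RPM and the Ey+ replicates 33.6, 10.5 and 6.65 RPM. The states overlapped, and the log2 fold change was -1.20 (SE 0.71, edgeR adjusted p = 0.350) for Grh+ and -0.79 (SE 0.70, adjusted p = 0.503) for Ey+ against D+ INPs. Its exons span 12443 bases, which makes it one of the longest members. Once the dependence of each library on exon length was removed, the values were -1.70 (SE 0.33, adjusted p = 0.0143) and -1.75 (SE 0.33, adjusted p = 0.0108), and ct was then called in both comparisons.

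The remaining members were low in all states. The 9 members too low to be tested were unpg, cad, eve, OdsH, PHDP, Poxm, lab, lbe and slou. Of these, unpg, eve and lbe had 0 counts in every D+ library, where 0 counts allow up to 0.129 to 0.153 RPM per library. The intermediate column gene ind, the motor neuron gene exex and the eye gene ro had state means of 0.158 to 1.07 RPM. The Pax gene Poxn, which specifies poly-innervated sense organs, had means of 0.124, 0.697 and 0.328 RPM. For oc (orthodenticle), a head and brain gene, and vvl, a POU gene of neurons and glia, Grh+ replicate 2 was the highest library with 10.2 and 16.2 RPM, against 0 to 6.02 and 0.153 to 6.06 RPM elsewhere. Intervals and limits from counts cover counting error only.

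For comparison, 48 further homeobox and Pax genes and cofactors were listed, of which 47 were matched and 36 tested. In Grh+ against D+ INPs 3 were called higher (ey, hbn and CG32532), where 1.73% of all genes tested were. Vsx1 was called lower, where 3.16% of all genes were called in either direction. In Ey+ against D+ INPs 2 were higher (ey and Bx, 1.65% of all genes) and Vsx1 again lower (2.31% of all genes). In Ey+ against Grh+ INPs edgeR called none, where 0.235% of all genes were called. For Vsx1, a gene of the visual system, the log2 fold change against D+ INPs was -2.59 (SE 0.30) in Grh+ and -1.56 (SE 0.28) in Ey+ INPs, and the latter missed the threshold without Ey+ replicate 2 (adjusted p = 0.0672). The paired-like gene hbn and the gene CG32532 had 1.18 (SE 0.15) and 2.22 (SE 0.38) in Grh+ INPs, and the call was lost for hbn without Grh+ replicate 1 (0.0545) and for CG32532 without Grh+ replicate 1, 2 or 3 (0.0660, 0.0560 and 0.0645). The Ey::GFP flies carry an additional copy of ey, which is also the factor of the gate. The LIM-only gene Bx, whose product binds the shared LIM cofactor, had 3.84, 0.102 and 4.45 RPM in D+, 11.9, 17.9 and 9.42 RPM in Grh+ and 37.8, 23.6 and 16.1 RPM in Ey+ replicates 1, 2 and 3. D+ libraries were below all others for Bx, as for Lmx1a, with a log2 fold change of 3.42 (SE 0.89, adjusted p = 0.0461) between Ey+ and D+ INPs. The call for Bx was kept only without D+ replicate 2 (0.0181) or Ey+ replicate 3 (0.0492), and was lost without any other library, with up to 0.153 without Ey+ replicate 1.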

How the data were processed

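INPs of 3 states were profiled in 3 libraries each, grouped by the sample labels. Each deposited file holds the authors' raw read counts per gene for a single library, with no normalization. The authors removed ribosomal reads with BWA 0.7.12, aligned the 50 bp reads with TopHat2 2.1.1 to FlyBase r6.12, marked duplicates by molecular tag, masked small RNA genes with bedtools 2.26.0 and counted with HTSeq 0.6.1 without strand. They tested with DESeq2 1.12.4. Whether duplicates were dropped is not given in the sources used here. Reads from genes with overlapping exons or several alignments are lost in this counting, and oligo-dT priming makes values sensitive to transcript coverage.

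The 5 summary lines (34.7% to 53.2% of the counts per library) were left out. RPM is counts per 1000000 counts on genes, and a state's RPM is the mean of its libraries. One quasi-likelihood model (edgeR 4.0.16, R 4.3.3) was fitted to the 9 libraries with TMM factors and edgeR's expression filter by state (common biological coefficient of variation 0.477), with Benjamini-Hochberg adjustment over all 10193 genes tested. DESeq2 1.42.0, other scalings and filters, the replicate number as a block, the 6 libraries of a comparison alone and each library left out were the alternatives. The count of members without the RPM minimum under each of them, the counts without Grh+ replicate 2 and the values without Ey+ replicate 1 were chosen after seeing the data. With 3 libraries per state an exact two-sided permutation test cannot go below p = 0.1.

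The members and all lists were chosen with earlier results of these data known. Values per library are given for called members, for bsh, and for members over 10 RPM in which a state is separate. Further members were shown after their values were seen: those passing without the RPM minimum, and ap, onecut, zfh1, zfh2, ct and E5. Symbols matched 16208 of 16364 identifiers. Positions and exon lengths are from the BDGP6.54 annotation, on the same Release 6 assembly but of another annotation release. No pair of libraries was identical or within sampling noise. Sequences were not analysed here. Some results for the further homeobox genes are not reported here.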

Additional observations from a re-analysis of the deposited data

How the results depend on the processing

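None of 20 named fold changes of single members changed direction. These were the 20 with the lowest adjusted p in the main fit, and the alternatives reuse the same libraries. A kept direction was therefore largely fixed in advance. Of the 324 values of these fold changes under alternatives, 252 stayed on the same side of the threshold, 42 lost it and 30 gained it. Of the members, 1 was called between Grh+ and D+ INPs, and the count was 2 with library size only, no filter or DESeq2, 3 with the exon length trend removed, 0 with the 6 libraries alone, 4 without the RPM minimum and 1 to 2 with each library left out. It was 2 without D+ replicate 1 or Ey+ replicate 1. In Ey+ against Grh+ INPs the count of 0 became 4 with library size only, 1 with the exon length trend removed or with no filter, 3 with DESeq2, 2 with the 6 libraries alone, and 0 to 1 with each library left out (1 without D+ replicate 1 or 2). In Ey+ against D+ INPs it was 3, and it was 4 with DESeq2 (zfh1 added) or the exon length trend removed (ct added), 2 with the 6 libraries alone or at least 10 counts in every library, and 2 to 3 with each library left out (2 without D+ replicate 2 or 3 or Ey+ replicate 2 or 3). Without the RPM minimum, the 4 members past adjusted p and fold change between Grh+ and D+ INPs became 1 with at least 10 counts in every library, a filter that removes Lmx1a, ems, gsb and en, 8 with DESeq2, 0 with the 6 libraries alone and 1 to 7 with each library left out (7 without D+ replicate 1, 2 without D+ replicate 3 or Ey+ replicate 3, and 1 without any Grh+ library). For Ey+ against Grh+ INPs the 0 became 5 with library size only, 1 with the exon length trend removed or with no filter, 8 with DESeq2, 6 with the 6 libraries alone and 0 to 1 with each library left out. For Ey+ against D+ INPs the 4 became 2 with at least 10 counts in every library, 2 with the 6 libraries alone and 2 to 7 with each library left out (7 without D+ replicate 1, and 2 without D+ replicate 3, Ey+ replicate 2 or Ey+ replicate 3). With the replicate number as a block, the members called were 1, 0 and 3 in the 3 comparisons, and those past adjusted p and fold change between Grh+ and D+ INPs fell from 4 to 2. Whether libraries of equal number were prepared together is not stated by the labels. The r of their deviations was -0.26 to 0.50 and exceeded 0.1 in 3 of 9 such pairs. With 3 libraries per state, these values cannot decide it. Counts over all genes moved too, and DESeq2 called 457, 175 and 600 genes where edgeR called 322, 24 and 403. The block fit called 214, 10 and 293, and the fit of 6 libraries 183, 141 and 139. Without the RPM minimum, 436 of all genes passed between Grh+ and D+ INPs. This became 869 with DESeq2, 191 with the 6 libraries alone and 56 to 800 with each library left out. For Ey+ against Grh+ INPs the 24 became 258, 230 and 3 to 92. For Ey+ against D+ INPs the 501 became 943, 155 and 116 to 909. The median log2 fold change of all genes shifted by more than 0.1 in some scalings. Between Grh+ and D+ INPs it was 0.00, 0.16 with library size only and -0.26 with the exon length trend removed, where the members tested had 0.96, 1.10 and 0.41. Between Ey+ and Grh+ INPs it was -0.03, -0.29 and 0.08, with -1.25, -1.61 and -1.18 for the members. Between Ey+ and D+ INPs it was -0.02, -0.14 and -0.18, where the members' median of 0.21 fell to -0.00 and -0.08. The 9 members over 10 RPM in each state became 29, 42 and 25 in D+, Grh+ and Ey+ INPs at 1 RPM, and 4 in each at 50 RPM. With a replicate left out they were 8 to 9, 10 to 11 and 7 to 9. Outside the named results, zfh2 (Ey+ against D+) and ct (Ey+ against Grh+) changed sign without Ey+ replicate 1, from 1.86 to -0.03 and from 0.41 to -0.85. The cause of these changes was not tested. Depth limits the low members, since 3 counts equal 0.129 to 0.266 RPM.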
